A study of Mus musculus with 10 samples.

Results

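Chemokines and chemokine receptors were examined in mouse livers with diet-induced steatohepatitis. They were taken by gene symbol from the deposited expression table: every Ccl, Cxcl, Ccr and Cxcr gene with a number after the stem, Ackr1 to Ackr4, and Cx3cl1, Cx3cr1, Xcl1 and Xcr1. This gave 57 of the 17274 genes listed, 35 ligands and 22 receptors, and no expression value entered the choice. Of these, 37 genes (25 ligands and 12 receptors) averaged 0.5 FPKM or more over all livers and were tested, among 12053 genes tested in all. FPKM corrects the fragments sequenced from a gene for its length and for library size, so levels of different genes can be set side by side.

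The samples were 10 whole livers of wild-type mice, 5 per group. All mice ate a choline-deficient, high-fat diet with defined amino acids (CDAHFD), which causes fatty liver with inflammation, and all received an injection into a vein of adeno-associated virus (AAV), used to deliver genes. In the miR-181d-5p group the AAV encoded the microRNA miR-181d-5p, and in the control group it was a control AAV. The promoter in the vector, the age of the mice and the time on diet or after injection are not given in the sources used here. Nothing in the labels says that the 10 livers came from separate animals, so the p-values speak only of the spread among these libraries, which could be technical. No liver on a normal diet was analysed here, so the values compare diseased livers only.

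Chemokines are small secreted proteins that form gradients along which leukocytes migrate. Their names follow the spacing of the first conserved cysteines (CC, CXC, C and CX3C), and they signal through G protein-coupled receptors on the migrating cell. Atypical receptors (Ackr) bind chemokines without G protein signalling and remove or redistribute them. In steatohepatitis, Ccl2 and its receptor Ccr2 are known for drawing monocytes into the liver, Cxcr2 and its CXC ligands with a glutamate-leucine-arginine (ELR) motif for drawing neutrophils, and Cxcr3 and Cxcr6 for placing T cells and natural killer cells. Cxcl12 acts through Cxcr4.

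The hepatocyte markers chosen for this tissue summed to 35661 to 40292 FPKM in miR-181d-5p livers and 34115 to 40731 FPKM in control livers. The vector's own product could not be followed, since the table lists 0 miR-181 genes. Libraries held 18985912 to 20657019 gene-assigned reads as recovered from the FPKM. Control liver 5 stood apart from the other 9 livers in genes that respond to acute stimuli: Fos stood at 142 FPKM there and at no more than 15.2 FPKM elsewhere, and Egr1 at 96.2 FPKM against no more than 25.2 FPKM. Results below that rest on this liver are given with and without it.

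Under the treatment, most tested chemokine system genes were lower on average than in controls, and none passed the test over all genes. Of the 37 genes, 32 had a log2 change below 0 (86.5%), where 54.5% of all genes tested did. Without control liver 5 the count was 25 (67.6%), where the share of all genes was 58.6%. The median log2 change over the 37 genes was -0.14, and -0.02 over all genes tested. By limma with Benjamini-Hochberg adjustment, 0 of 37 had an adjusted p under 0.05, and 0 of all 12053 genes (0%) did. The lowest adjusted p of the set, 0.221, belonged to Cxcr4. On reads recovered from the FPKM, limma voom also called 0 genes at an adjusted p under 0.05, with 546 higher and 1195 lower at an unadjusted p under 0.05.

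At an unadjusted p under 0.05, 8 of the 37 genes were lower (21.6%, background 9.63%) and 1 was higher (2.70%, background 5.04%). The 8 were Cxcr4, Ccl6, Ccr1, Cxcl16, Cx3cl1, Cxcl14, Cxcl12 and Ccl3, and the 1 was Ackr4. The count of 8 rested on single livers: it was 2 without miR-181d-5p liver 4 (background 5.59%), 4 without liver 5 of that group (8.57%) and 5 without its liver 2 (6.84%). Leaving out control liver 4 gave 3 (background 6.75%), and leaving out control liver 1 gave 13 (10.5%). It was 6 without control liver 5 (16.2%, background 14.9%). Of the 8, only Cxcr4, Ccl6 and Cx3cl1 were still called then, and Ccr7 and Cxcl9 were among the genes newly called. Cxcr4 alone had groups that did not overlap (1 of 37, 2.70%). The background for this was 1.45% of genes lower without overlap, and 1.02% higher without overlap. Among all genes, 607 were higher and 1161 lower at this unadjusted threshold. That split moved to 347 and 1266 when each liver was rescaled to a common sum, and to 1007 and 935 after quantile normalization. In these bulk samples, fewer cells of a type and less RNA per cell cannot be told apart.

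**Figure D1:**
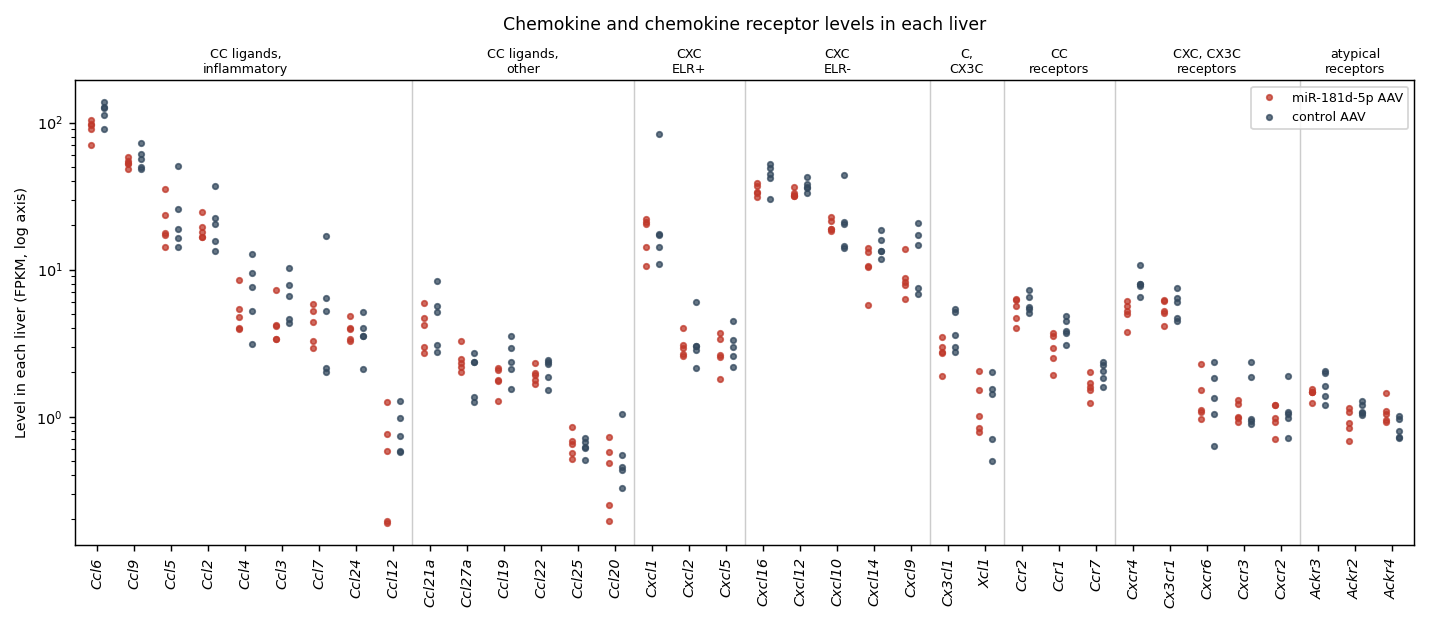
Level of 36 of the 37 tested chemokines and receptors in each liver, in FPKM on a log axis, with miR-181d-5p livers left of control livers for each gene and genes ordered by role and then by mean level. Ccl6 is at the top, with 70.6 to 104 FPKM in miR-181d-5p livers and 91.3 to 139 FPKM in control livers, and the groups overlap in each gene shown but Cxcr4.

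The levels spanned from Ccl6, at a mean of 106 FPKM over all livers, down to Ccl27b at 0.00583 FPKM. The 10 genes that averaged 10 FPKM or more were all ligands, namely Ccl6, Ccl9, Cxcl16, Cxcl12, Ccl5, Cxcl1, Cxcl10, Ccl2, Cxcl14 and Cxcl9. Among the receptors, higher levels included those of Cxcr4 (6.70 FPKM over all livers), Ccr2 (5.68 FPKM) and Cx3cr1 (5.61 FPKM). Along the order of mean levels, 0 of 56 pairs of neighbours had ranges over the 10 livers that were separate. Even for Ccl6 and Ccl9, the top pair, the lowest Ccl6 value was 70.6 FPKM and the highest Ccl9 value was 72.4 FPKM.

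Cxcr4, the receptor through which Cxcl12 retains and guides leukocytes, gave the clearest separation. It stood at 4.97, 5.25, 6.17, 3.76 and 5.67 FPKM in miR-181d-5p livers 1 to 5, against 6.56, 7.97, 8.05, 7.80 and 10.8 FPKM in control livers 1 to 5. The groups did not overlap, with control liver 5 the highest and miR-181d-5p liver 4 the lowest. The means were 5.16 ± 0.907 and 8.23 ± 1.54 FPKM (SD, n = 5 each), which puts the miR-181d-5p mean at 62.8% of control, on 1458 reads against 2318. The log2 change was -0.58 (SE 0.13) with a limma adjusted p of 0.221. The two-sided exact permutation p of the difference in means was 0.00794, the lowest value possible with 5 livers a group. Without control liver 5 the log2 change was -0.49 (adjusted p = 0.151 by limma), and over all alternatives it ran from -0.67 to -0.49 with an adjusted p from 0.102 to 0.501. Cxcr4 lies on the reverse strand of chromosome 1 (128588199 to 128592293, mm10).

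Cxcl12, made mainly by stromal and endothelial cells, is the ligand of Cxcr4 and was much more abundant. Its values were 31.6, 36.4, 31.5, 32.2 and 33.2 FPKM in miR-181d-5p livers 1 to 5 and 33.3, 42.8, 36.0, 36.2 and 38.5 FPKM in control livers 1 to 5. The groups overlapped through miR-181d-5p liver 2, which lay above control livers 1, 3 and 4. The miR-181d-5p mean was 88.3% of control, a log2 change of -0.17 (SE 0.07; limma adjusted p = 0.324). Ackr3, the atypical receptor that scavenges Cxcl12, averaged 1.44 ± 0.117 FPKM in miR-181d-5p livers and 1.64 ± 0.364 FPKM in control livers (SD, n = 5 each). Its groups overlapped, and its adjusted p by limma was 0.605.

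**Figure D2:**
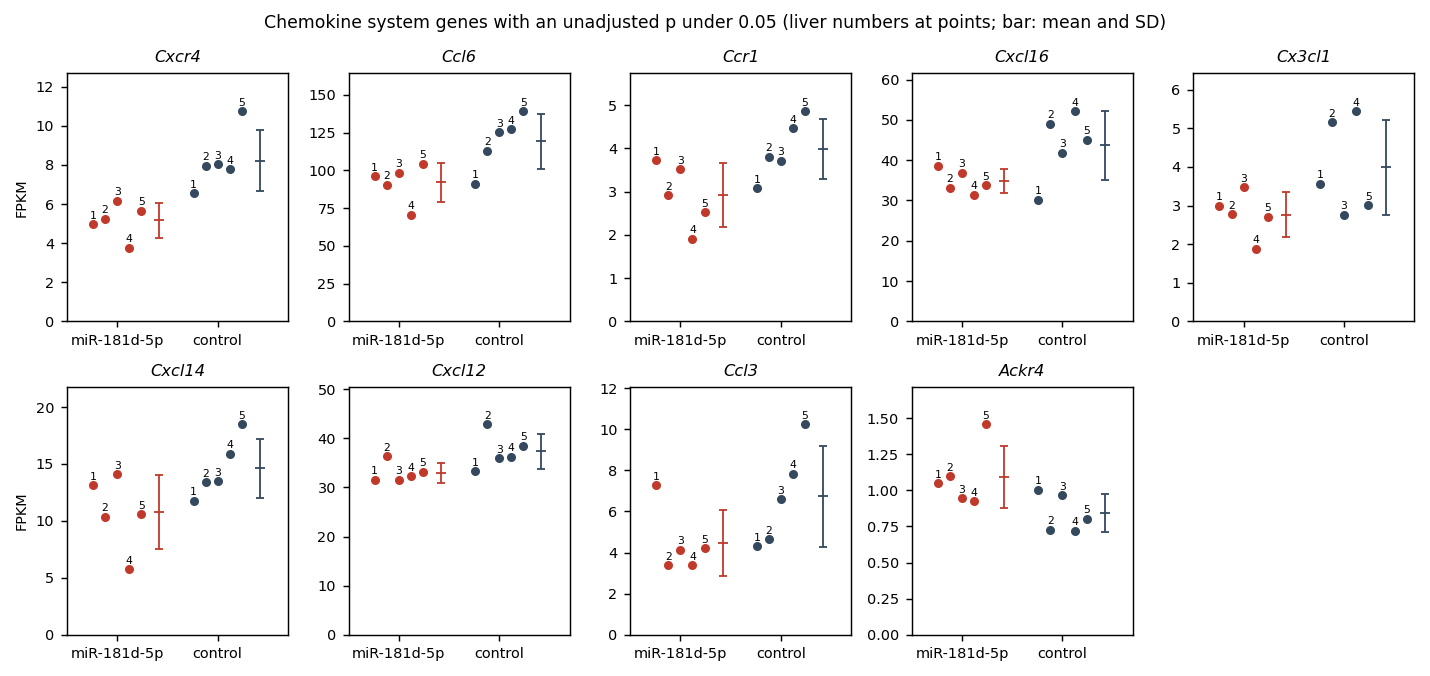
FPKM in each liver for the 9 chemokine system genes with an unadjusted p under 0.05, with miR-181d-5p livers at the left and control livers at the right of each panel, liver numbers at the points, and the mean with its SD beside each group. Only Cxcr4 has groups that do not overlap (3.76 to 6.17 FPKM against 6.56 to 10.8 FPKM), and Ackr4 is the 1 gene of the 9 that is higher in miR-181d-5p livers.

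Of 11 inflammatory CC ligands, 9 were tested and 8 had a log2 change below 0, with a median of -0.20. Without control liver 5, the highest liver in 7 of the 9, 6 were below 0 (median -0.18). Among all genes tested, 54.5% were below 0, and 58.6% without that liver. Ccl6 and Ccl9, mouse chemokines of myeloid cells that bind Ccr1, were the most abundant of all. Ccl6 stood at 96.2, 90.6, 98.4, 70.6 and 104 FPKM in miR-181d-5p livers 1 to 5, against 91.3, 113, 125, 127 and 139 FPKM in control livers 1 to 5. All 5 miR-181d-5p livers lay below control livers 2 to 5, and control liver 1 fell within the miR-181d-5p range. The miR-181d-5p mean was 77.2% of control, with a log2 change of -0.37 (SE 0.12), a limma adjusted p of 0.2503 and a two-sided exact permutation p of 0.0317.

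Ccl9 stood at 54.5, 53.1, 58.2, 48.7 and 52.2 FPKM in miR-181d-5p livers 1 to 5 and 48.4, 50.3, 57.0, 61.6 and 72.4 FPKM in control livers 1 to 5. The ranges overlapped almost fully, with control livers 4 and 5 above the rest, and the log2 change was -0.10 (SE 0.10; limma adjusted p = 0.636), or -0.02 when control liver 5 was left out. The difference between Ccl6 and Ccl9 in response was not tested. Ccr1, the receptor they share with Ccl3 and Ccl5, stood at 3.73, 2.92, 3.52, 1.91 and 2.52 FPKM in miR-181d-5p livers 1 to 5 and 3.09, 3.81, 3.72, 4.46 and 4.86 FPKM in control livers 1 to 5. Control liver 1 again fell among the miR-181d-5p livers, and miR-181d-5p liver 1 among the controls. Its log2 change was -0.36 (SE 0.14; limma adjusted p = 0.288).

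Ccl3 and Ccl4, which attract macrophages and T cells, lie next to each other on chromosome 11. Ccl3 stood at 7.26, 3.37, 4.13, 3.39 and 4.21 FPKM in miR-181d-5p livers 1 to 5, against 4.32, 4.63, 6.60, 7.84 and 10.2 FPKM in control livers 1 to 5. Of the treated livers, miR-181d-5p livers 2 to 5 lay below each control liver, and miR-181d-5p liver 1 lay above 3 of them. The log2 change was -0.48 (SE 0.22; limma adjusted p = 0.334). It was -0.64 when miR-181d-5p liver 1 was left out and -0.33 when control liver 5 was, which ended the unadjusted call. Ccl4 ran from 3.98 to 8.46 FPKM in miR-181d-5p livers and from 3.13 to 12.7 FPKM in control livers, with a log2 change of -0.37 that was -0.18 without control liver 5.

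Ccl5, made by T cells, natural killer cells and other leukocytes, stood at 35.5, 17.1, 14.4, 23.4 and 17.9 FPKM in miR-181d-5p livers 1 to 5 and 14.2, 16.3, 26.1, 50.5 and 18.8 FPKM in control livers 1 to 5. Control liver 4 and miR-181d-5p liver 1 were the highest, and all miR-181d-5p values lay within the control range. The log2 change of -0.13 (SE 0.31) turned to 0.15 when control liver 4 was left out.

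The monocyte axis differed less than its own spread. Ccl2 stood at 24.7, 19.4, 16.8, 16.6 and 18.05 FPKM in miR-181d-5p livers 1 to 5 and 15.7, 13.5, 22.5, 20.3 and 36.8 FPKM in control livers 1 to 5. Control livers were both the highest (5) and the lowest (1 and 2) of the 10. The log2 change of -0.11 (SE 0.21) was 0.09 without control liver 5. Ccl7, a neighbour of Ccl2 on chromosome 11 that also acts through Ccr2, stood at 5.88, 5.20, 4.41, 3.28 and 2.95 FPKM in miR-181d-5p livers 1 to 5 and 2.001, 2.15, 6.39, 5.22 and 16.9 FPKM in control livers 1 to 5. Here too control liver 5 was far above the rest, and the log2 change of -0.20 was 0.19 without it. Ccr2 itself, the receptor on inflammatory monocytes, stood at 6.29, 5.63, 6.24, 4.04 and 4.71 FPKM in miR-181d-5p livers 1 to 5 and 5.06, 7.32, 5.54, 6.57 and 5.40 FPKM in control livers 1 to 5. The groups overlapped, with a log2 change of -0.13 (SE 0.12; limma adjusted p = 0.614).

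Ccl12, another mouse Ccr2 ligand, passed the level filter on 1 to 7 recovered reads per liver, too few to show a difference. These counts rest on a recovered length of 268 bases, the shortest that fit, and may be too low. Ccl24, an eosinophil attractant known from alternatively activated macrophages, stood at 4.82, 3.25, 3.38, 4.02 and 3.93 FPKM in miR-181d-5p livers 1 to 5 and 3.55, 2.10, 3.55, 4.02 and 5.13 FPKM in control livers 1 to 5. With all 10 livers it was the 1 tested ligand of the class with a log2 change above 0 (0.09, SE 0.15). The change was -0.05 when control liver 2 was left out, and the miR-181d-5p values lay within the control range.

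CXC ligands with an ELR motif, which bind Cxcr2 on neutrophils, were measured at a testable level in 3 of 4 cases. Cxcl1 stood at 21.0, 20.6, 22.1, 14.2 and 10.5 FPKM in miR-181d-5p livers 1 to 5, against 10.99, 14.3, 17.4, 17.1 and 84.0 FPKM in control livers 1 to 5. The mean was 17.7 ± 5.03 FPKM in miR-181d-5p livers and 28.8 ± 31.002 FPKM in control livers (SD, n = 5 each). Without control liver 5 the control mean was 15.0 ± 2.97 FPKM (SD, n = 4) and the log2 change turned from -0.29 (SE 0.43) to 0.20. Cxcl2 stood at 4.02, 2.68, 3.06, 2.96 and 2.60 FPKM in miR-181d-5p livers 1 to 5 and 2.15, 3.04, 3.03, 2.86 and 6.02 FPKM in control livers 1 to 5, and Cxcl5 ran from 1.81 to 3.69 FPKM in miR-181d-5p livers and from 2.18 to 4.503 FPKM in control livers. All 3 tested ELR ligands were highest in control liver 5, had a log2 change below 0 with it and above 0 without it (0.11 for Cxcl2, 0.01 for Cxcl5). Cxcr2 followed the same pattern, at 1.89 FPKM in control liver 5 and 0.706 to 1.20 FPKM in the other 9 livers, with a log2 change of -0.08 that was 0.03 without it.

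**Figure D3:**
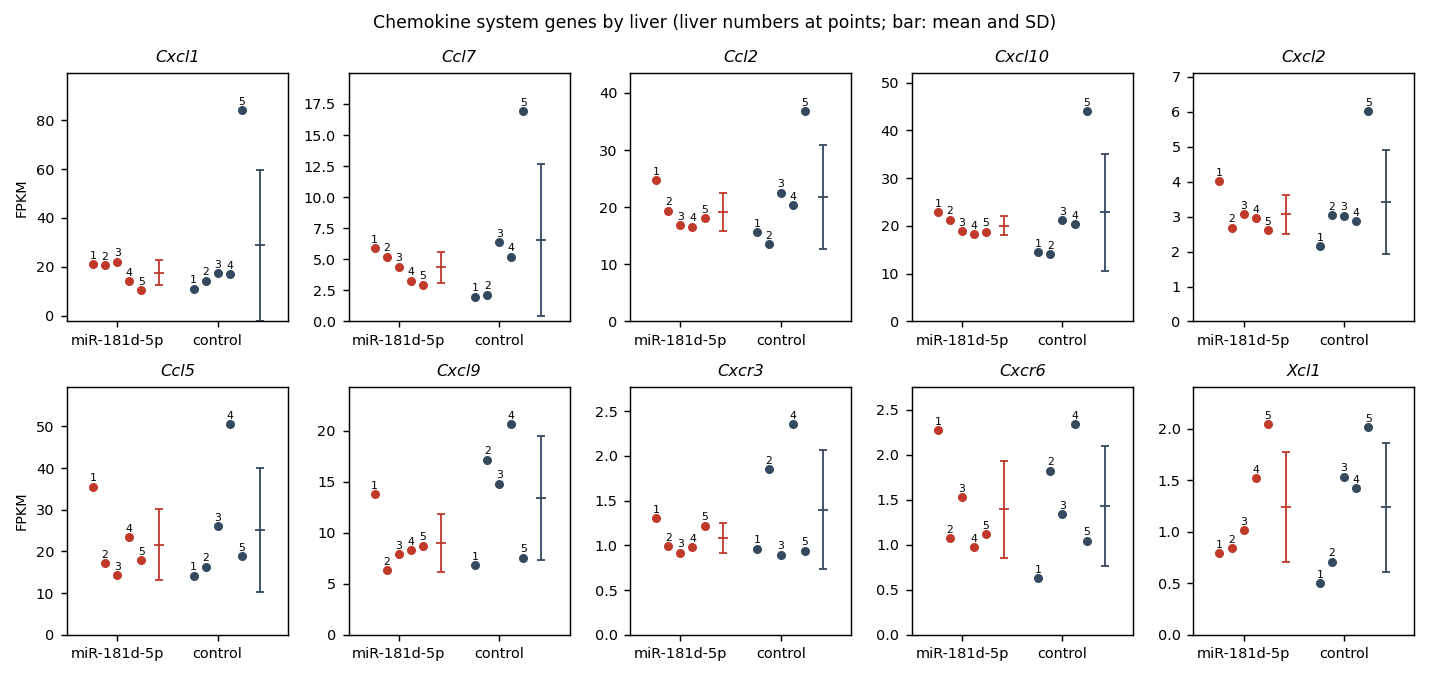
FPKM in each liver for 10 chemokine system genes chosen after their values were seen, with miR-181d-5p livers at the left and control livers at the right of each panel, liver numbers at the points, and the mean with its SD beside each group. In the upper row (Cxcl1, Ccl7, Ccl2, Cxcl10, Cxcl2) control liver 5 is above the other 9 livers, and in Ccl5, Cxcl9, Cxcr3 and Cxcr6 control liver 4 is.

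Control liver 5 was the highest of the 10 livers in 17 of the 37 genes (45.9%), where it was the highest in 12.9% of all genes tested. Beside the ELR ligands these included Ccl2, Ccl7, Ccl3, Ccl4, Ccl20 and Cxcl10. Control liver 4 was the highest in 10 (27.0%, background 16.5%). Cxcl10, an interferon-induced ligand of Cxcr3 that also responds to NF-kB, stood at 22.9, 21.3, 18.9, 18.3 and 18.8 FPKM in miR-181d-5p livers 1 to 5 and 14.6, 14.1, 21.3, 20.4 and 44.0 FPKM in control livers 1 to 5. Its log2 change of -0.06 (SE 0.24) was 0.20 without control liver 5. The neutrophil markers, a list of 10 genes that includes Cxcr2, summed to 56.0 to 89.2 FPKM in miR-181d-5p livers and 54.9 to 124 FPKM in control livers, the 124 FPKM being control liver 5. Most of that was S100a8 and S100a9, at 49.9 and 54.1 FPKM in control liver 5. Retnlg, Mmp8, Csf3r, Cxcr2 and Il1r2 were also highest in that liver, and Ly6g, Camp and Ngp were not. E-selectin (Sele), which endothelium displays after acute stimulation, stood at 4.40 FPKM in control liver 5 and at no more than 0.675 FPKM elsewhere. The part of these in the chemokine values was not tested.

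Promoter sequences are shown for 3 of these genes, Cxcl1, Cxcl2 and Cxcl10, since they carried the widest gap of control liver 5 to the other control livers relative to the group's range. RefSeq sequences (GRCm38.p6) were found for 28 of the 37 genes. The 250 bases before each start site were searched on both strands for the NF-kB consensus motif, the binding site of the factor that induces many inflammatory chemokines, and for the AP-1 motif TGANTCA, bound by Fos and Jun. The NF-kB consensus was present in 6 of 28 genes (Cxcl1, Cxcl2, Cxcl10, Ccl9, Ccl20 and Ackr2), and in 3.75% of all 27025 promoters of the same length. All 6 were highest in control liver 5, out of 12 genes with a promoter sequence that were, and 0 of the 16 other genes held it. The lead was narrow for Ackr2 (1.28 FPKM against 1.21 FPKM in control liver 4), and Ccl9 stood at 72.4 against 61.6 FPKM. Ccl2, Ccl4, Ccl7, Ccl24 and Cxcl5, also highest in control liver 5, had no promoter sequence here, nor had Ccl5, Ccr7 and Cxcl16. The split leaves these genes out. This set-up was chosen after the values were seen, so the split is no test of the motif. A match says only that the letters are present. The part of the motif in the values of control liver 5 was not tested. TGANTCA, present in 6.87% of all promoters, was found in Ccl9 and Cxcl10. The sequences run 5′ to 3′ toward the start site, with matches in capitals. Cxcl1 (chr5:90890995-90891244, forward strand) and Cxcl2 (chr5:90903649-90903898, forward strand) carry the same stretch, in which 2 NF-kB matches overlap. Cxcl10 (chr5:92348890-92349139, reverse strand) carries 2 separate NF-kB matches followed by TGANTCA.
Cxcl1: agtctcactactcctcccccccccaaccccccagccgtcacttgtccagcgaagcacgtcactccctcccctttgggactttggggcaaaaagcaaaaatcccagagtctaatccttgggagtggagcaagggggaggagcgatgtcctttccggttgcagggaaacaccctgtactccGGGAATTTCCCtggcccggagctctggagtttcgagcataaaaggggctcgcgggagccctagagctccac
Cxcl2: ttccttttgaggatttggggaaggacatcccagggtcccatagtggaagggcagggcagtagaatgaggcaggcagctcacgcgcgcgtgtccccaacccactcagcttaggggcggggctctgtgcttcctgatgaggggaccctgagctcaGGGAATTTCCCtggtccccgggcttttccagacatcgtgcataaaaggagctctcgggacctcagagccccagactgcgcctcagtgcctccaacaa
Cxcl10: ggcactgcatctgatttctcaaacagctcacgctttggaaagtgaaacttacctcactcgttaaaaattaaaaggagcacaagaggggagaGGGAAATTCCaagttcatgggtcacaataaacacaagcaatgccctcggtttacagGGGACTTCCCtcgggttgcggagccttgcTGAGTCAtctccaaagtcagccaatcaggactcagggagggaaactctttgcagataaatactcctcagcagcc

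Another set of genes was led by control livers 2 and 4. Cxcl9, an interferon gamma-induced ligand of Cxcr3, stood at 13.8, 6.33, 7.89, 8.29 and 8.72 FPKM in miR-181d-5p livers 1 to 5, against 6.82, 17.2, 14.8, 20.6 and 7.56 FPKM in control livers 1 to 5. Control livers 2, 3 and 4 were above every other liver, and control livers 1 and 5 lay within the miR-181d-5p range. The log2 change was -0.45 (SE 0.28, limma adjusted p = 0.446). It was -0.28 without control liver 4, -0.61 without control liver 5 and -0.64 without control liver 1. Cxcr3, its receptor on activated T cells and natural killer cells, stood at 1.31, 0.993, 0.917, 0.979 and 1.22 FPKM in miR-181d-5p livers 1 to 5 and 0.964, 1.85, 0.896, 2.35 and 0.940 FPKM in control livers 1 to 5. The values of control livers 2 and 4 were the highest, and the other 3 control livers lay in or just below the miR-181d-5p range. The log2 change of -0.17 was -0.04 when control liver 4 was left out.

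Genes of the interferon gamma response, a list of 16 that holds no chemokine, summed to 268 to 353 FPKM in miR-181d-5p livers and 274 to 627 FPKM in control livers. The sums were 627, 488 and 407 FPKM in control livers 2, 3 and 4, the same livers in which Cxcl9 was highest. Of the 15 tested, all had a log2 change below 0 and 2 had an unadjusted p under 0.05, with a median log2 change of -0.28. The background for the count of 2 was 9.63%, and the median was -0.46 when control liver 5 was left out. The T cell and natural killer cell markers summed to 12.5 to 22.6 FPKM in miR-181d-5p livers and 12.4 to 27.8 FPKM in control livers. They were highest in control liver 4 and miR-181d-5p liver 1, the livers highest in Ccl5. Of the 8 tested, 7 had a log2 change below 0, 2 of them at an unadjusted p under 0.05 (background 9.63%). Trac and Trbc2 of this list were not analysed here, and no listed marker was at 0 in all livers. Their part in the chemokine values was not tested.

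Cxcl16, a membrane-bound chemokine of macrophages and endothelium that is also released, stood at 38.6, 33.1, 36.9, 31.4 and 33.8 FPKM in miR-181d-5p livers 1 to 5, against 30.2, 49.0, 41.8, 52.2 and 45.1 FPKM in control livers 1 to 5. All miR-181d-5p livers lay below 4 control livers, and control liver 1 was the lowest of the 10. The log2 change was -0.30 (SE 0.13) with a limma adjusted p of 0.311. Leaving out control liver 1 gave -0.42 and an adjusted p of 0.102. Its receptor Cxcr6, carried by liver T cells and natural killer T cells, stood at 2.27, 1.07, 1.53, 0.970 and 1.12 FPKM in miR-181d-5p livers 1 to 5 and 0.628, 1.82, 1.34, 2.34 and 1.047 FPKM in control livers 1 to 5. The miR-181d-5p values of the receptor lay within the control range (log2 change -0.01, SE 0.19), and the change took either sign when single livers were left out. Whether ligand and receptor differed from each other in response was not tested.

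Of 7 CXC ligands without an ELR motif 5 were tested (Cxcl9, Cxcl10, Cxcl12, Cxcl14 and Cxcl16), all with a log2 change below 0 (median -0.30), and 4 were below 0 without control liver 5. Cxcl14, a chemokine of epithelium and stroma, stood at 13.1, 10.4, 14.1, 5.78 and 10.6 FPKM in miR-181d-5p livers 1 to 5 and 11.8, 13.4, 13.5, 15.9 and 18.5 FPKM in control livers 1 to 5. The lowest value was that of miR-181d-5p liver 4, and miR-181d-5p livers 1 and 3 lay within the control range. The log2 change of -0.44 (SE 0.19) had a limma adjusted p of 0.320, and it was -0.25 when miR-181d-5p liver 4 was left out.

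Cx3cl1 (fractalkine), an adhesive chemokine anchored in endothelial and epithelial membranes, stood at 2.998, 2.77, 3.47, 1.89 and 2.71 FPKM in miR-181d-5p livers 1 to 5, against 3.57, 5.16, 2.77, 5.44 and 3.002 FPKM in control livers 1 to 5. Control livers 2 and 4 were the highest, as for Cxcr3, and control livers 3 and 5 lay among the miR-181d-5p livers. Its log2 change was -0.38 (SE 0.16; limma adjusted p = 0.312). Cx3cr1, its receptor on monocytes and macrophages, stood at 6.11, 5.26, 6.22, 4.14 and 5.07 FPKM in miR-181d-5p livers 1 to 5 and 6.08, 7.55, 4.501, 6.45 and 4.68 FPKM in control livers 1 to 5. The groups overlapped in part, and the log2 change of -0.10 (SE 0.13) was -0.01 when control liver 2 was left out. Xcl1, which attracts cross-presenting dendritic cells through Xcr1, stood at 0.791, 0.841, 1.02, 1.52 and 2.04 FPKM in miR-181d-5p livers 1 to 5 and 0.499, 0.707, 1.53, 1.42 and 2.01 FPKM in control livers 1 to 5, on 5 to 21 reads per liver. Its groups overlapped, and its log2 change of 0.02 (SE 0.20) took either sign when single livers were left out.

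Macrophage markers were lower on average in miR-181d-5p livers. All 10 had a log2 change below 0, where 54.5% of all genes tested did. Of these, 7 had an unadjusted p under 0.05 (background 9.63%, median log2 change -0.30). The markers summed to 1690 to 2977 FPKM in miR-181d-5p livers and 2251 to 3349 FPKM in control livers. Lyz2 was the largest part, at a mean of 1203 FPKM in miR-181d-5p livers and 1456 FPKM in control livers. The lowest sum was that of miR-181d-5p liver 4, which was also the lowest liver in 12 of the 37 chemokine system genes (32.4%), where it was lowest in 20.4% of all genes. Control liver 1 was the lowest in 11 (29.7%, background 10.8%). Cholangiocyte markers summed to 118 to 386 FPKM in miR-181d-5p livers and 284 to 528 FPKM in control livers. Most of these sums was Spp1 alone, at a mean of 204 FPKM in miR-181d-5p livers and 329 FPKM in control livers. Of the 7 cholangiocyte markers tested, 7 were lower, 6 of them at an unadjusted p under 0.05 (background 9.63%, median log2 change -0.65). Stellate cell markers summed to 362 to 462 FPKM in miR-181d-5p livers and 474 to 647 FPKM in control livers. Of the 12 tested, 11 were lower, 8 of them at an unadjusted p under 0.05 (background 9.63%, median log2 change -0.31). Kupffer cell markers did not go with them, with 6 of 8 higher, a median log2 change of 0.06, and sums of 525.7 to 617 FPKM in miR-181d-5p livers and 535 to 691 FPKM in control livers. Monocyte markers, which include Ccr2, summed to 164 to 180.7 FPKM in miR-181d-5p livers and 169 to 299.8 FPKM in control livers. Most of these sums was Fn1 alone, at a mean of 144 FPKM in miR-181d-5p livers and 180 FPKM in control livers. Endothelial markers summed to 151 to 161 FPKM in miR-181d-5p livers and 154 to 177 FPKM in control livers. Of the 10 tested, 7 were lower, 4 of them at an unadjusted p under 0.05 (background 9.63%, median log2 change -0.10). Dendritic cell markers, which include Xcr1 and Ccr7, summed to 14.4 to 23.7 FPKM in miR-181d-5p livers and 20.1 to 28.2 FPKM in control livers. Most of these sums was Itgax alone, at a mean of 13.6 FPKM in miR-181d-5p livers and 17.9 FPKM in control livers. Of the 7 dendritic cell markers tested, 6 were lower, 1 of them at an unadjusted p under 0.05 (background 9.63%, median log2 change -0.08). B and plasma cell markers summed to 10.7 to 19.2 FPKM in miR-181d-5p livers and 8.79 to 17.7 FPKM in control livers. The part of any of these cell types in the chemokine values was not tested.

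**Figure D4:**
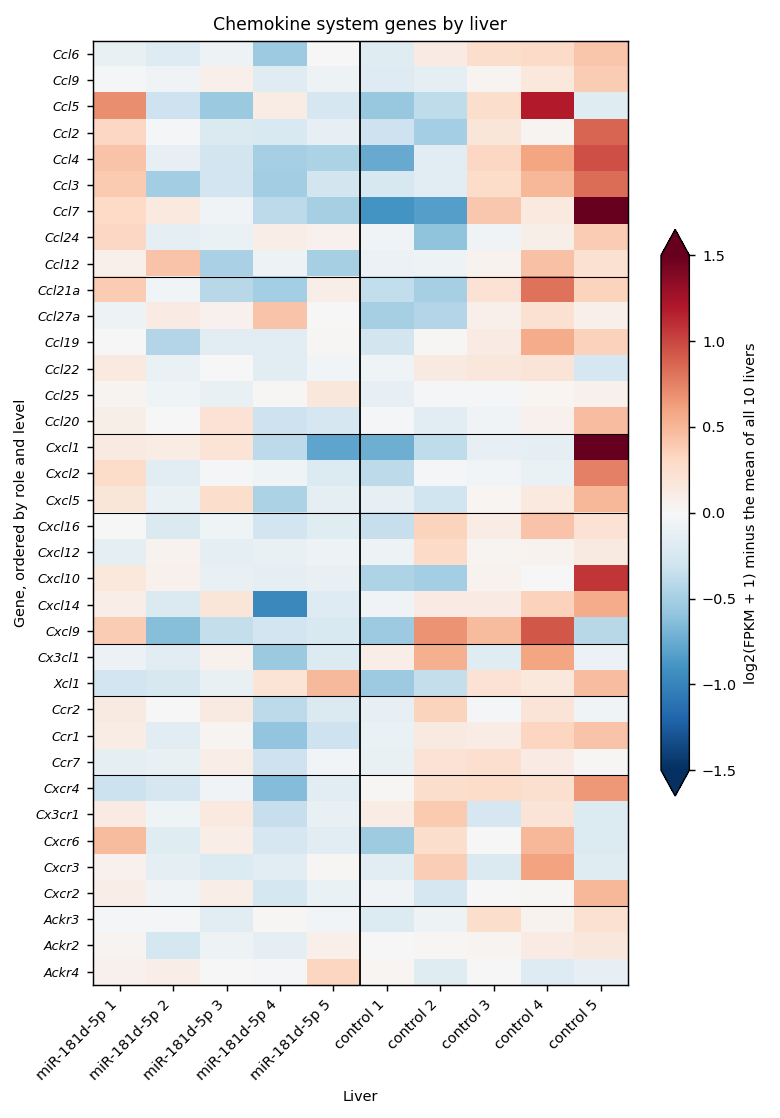
Each row is 1 of 36 of the 37 tested genes and each column 1 liver, miR-181d-5p livers at the left of the line and control livers at the right; the colour is log2(FPKM + 1) minus the mean of all 10 livers. Control liver 5 was highest in 17 genes and control liver 4 in 10, while miR-181d-5p liver 4 was lowest in 12 and control liver 1 in 11.

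Homeostatic chemokines, which place lymphocytes and dendritic cells in tissue and lymph nodes, were low in level. Of 11 CC ligands of this class 6 were tested, 4 with a log2 change below 0 (median -0.09). Ccl19 and Ccl21a, the ligands of Ccr7, averaged 1.80 ± 0.339 and 4.10 ± 1.30 FPKM in miR-181d-5p livers and 2.51 ± 0.770 and 5.01 ± 2.25 FPKM in control livers (SD, n = 5 each). Reads of Ccl21a and Ccl27a may be shared with their near-identical copies Ccl21b and Ccl27b, so these values are uncertain. Ccr7, carried by migrating dendritic cells and naive T cells, averaged 1.62 ± 0.273 FPKM in miR-181d-5p livers and 2.01 ± 0.306 FPKM in control livers (SD, n = 5 each), a log2 change of -0.20 (SE 0.10; limma adjusted p = 0.344). Ccl20, the ligand of Ccr6, stood at 0.575, 0.483, 0.722, 0.196 and 0.251 FPKM in miR-181d-5p livers 1 to 5 and 0.451, 0.326, 0.434, 0.552 and 1.04 FPKM in control livers 1 to 5, on 3 to 16 reads per liver. At that depth no difference was detectable. Ccl27a, a ligand of Ccr10, stood at 2.03, 2.47, 2.32, 3.27 and 2.18 FPKM in miR-181d-5p livers 1 to 5 and 1.26, 1.35, 2.34, 2.73 and 2.34 FPKM in control livers 1 to 5. Control livers 1 and 2 were the lowest, and the log2 change was 0.22 (SE 0.15; limma adjusted p = 0.489). Ccl25, the ligand of Ccr9, stood at 0.680, 0.567, 0.514, 0.656 and 0.846 FPKM in miR-181d-5p livers 1 to 5 and 0.505, 0.613, 0.621, 0.672 and 0.713 FPKM in control livers 1 to 5. The groups overlapped for Ccl25 (log2 change 0.02, SE 0.07, of either sign when single livers were left out) and for Ccl22, a ligand of Ccr4 (log2 change -0.07, SE 0.10).

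Among the receptors, 4 of 4 tested CC receptors and 5 of 5 tested CXC and CX3C receptors had a log2 change below 0, with medians of -0.23 and -0.10. Without control liver 5 these were 4 of 4 and 4 of 5, with medians of -0.26 and -0.16. Of 3 atypical receptors 2 did. Ackr4, an atypical receptor that scavenges Ccl19, Ccl21 and Ccl25, was the receptor with the smallest p among the genes higher in miR-181d-5p livers. It stood at 1.0503, 1.10, 0.945, 0.922 and 1.46 FPKM in miR-181d-5p livers 1 to 5, against 1.004, 0.728, 0.964, 0.720 and 0.802 FPKM in control livers 1 to 5. Control livers 1 and 3 lay within the miR-181d-5p range. The log2 change was 0.18 (SE 0.08) with a limma adjusted p of 0.337 and a two-sided exact permutation p of 0.0476. On reads recovered from the FPKM the log2 change was 0.37, since the added 1 FPKM compresses changes in genes at this level. Ackr2, which removes inflammatory CC chemokines, averaged 0.934 ± 0.184 FPKM in miR-181d-5p livers and 1.13 ± 0.1096 FPKM in control livers (SD, n = 5 each; limma adjusted p = 0.404).

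The other 20 genes averaged 0.00583 to 0.483 FPKM over all livers, with at most 45 reads in a liver, and 9 of them were at 0 in at least 1 liver. They were the ligands Ccl1, Ccl8, Ccl11, Ccl17, Ccl21b, Ccl27b, Ccl28, Cxcl3, Cxcl13 and Cxcl17 and the receptors Ccr1l1, Ccr3, Ccr4, Ccr6, Ccr8, Ccr9, Ccr10, Cxcr1, Cxcr5 and Xcr1. In 0 of them did the groups fail to overlap. Ccl17 and its receptor Ccr4 had 10 and 14 reads in all miR-181d-5p livers together and 24 and 30 in all control livers, and Ccl28 had 32 in miR-181d-5p livers and 13 in control livers. Such totals are too small for a comparison by level, and these genes were not in the test.

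**Figure D5:**
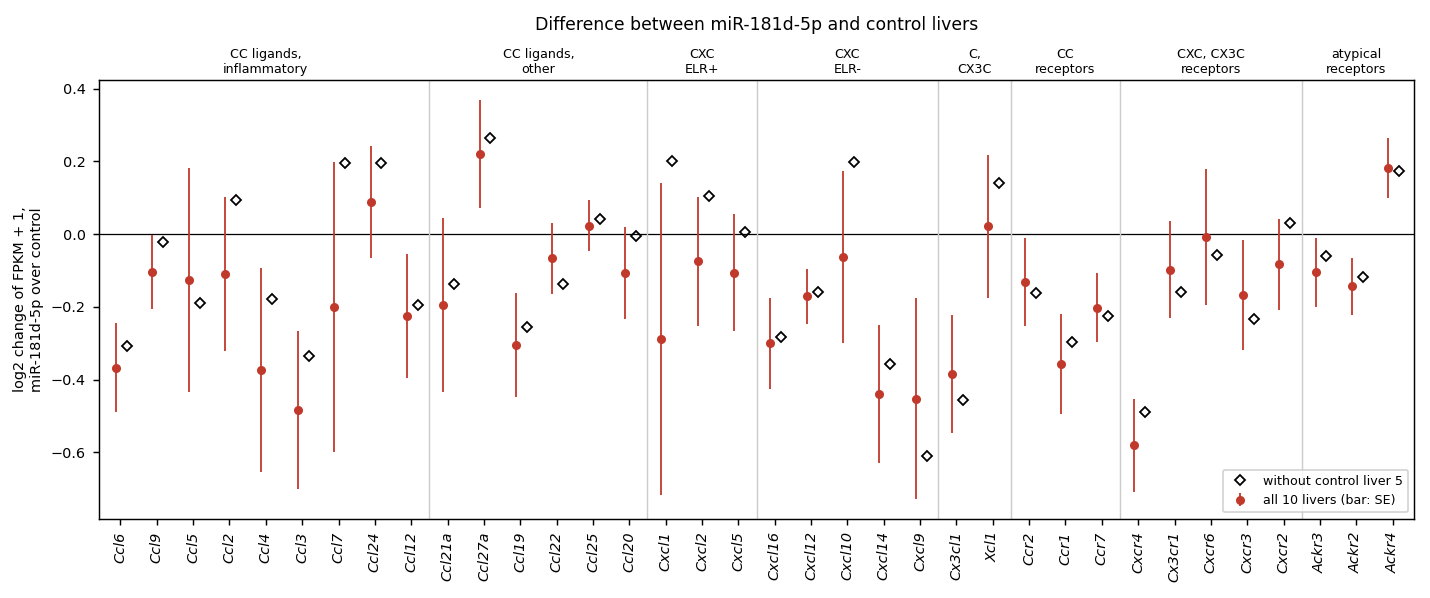
Log2 change of FPKM + 1, miR-181d-5p over control, for 36 of the 37 tested genes ordered by role and level; filled circles with SE bars use all 10 livers and open diamonds leave out control liver 5. The 3 ELR ligands, Ccl2, Ccl7, Cxcl10 and Cxcr2 pass from below 0 to above 0 without that liver, while Cxcr4 moves from -0.58 to -0.49.

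Spread differed between the groups. The SD of log2 values was larger in controls for 29 of the 37 genes (78.4%), as for 76.1% of all genes tested. In single genes the control SD exceeded the difference of the means, as for Cxcl1, Ccl7 and Cxcl10. Genes highest in control liver 5 included Cxcl1, Cxcl2 and Cxcl5 in the Cxcl cluster on chromosome 5 (between 90759360 and 90905938, mm10). On chromosome 11 they included Ccl2 (from 82035571), Ccl7 (to 82047525), and Ccl9, Ccl6, Ccl3 and Ccl4 (83572919 to 83664683). Between these, Ccl12 (from 82101845) and Ccl5 (83525778 to 83530518) were highest in control liver 4. So was Cxcl9, next to Cxcl10 on chromosome 5. Others highest in control liver 5, such as Cxcr4, Ccr1 and Cxcl14, lie on other chromosomes. The receptors Ccr1, Ccr2, Ccr3, Ccr9, Ccr1l1, Cxcr6 and Xcr1 lie together on chromosome 9, from Ccr9 at 123678439 to the end of Ccr2 at 124113557, and Cxcr4 is on chromosome 1.

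Sites for miR-181d-5p are shown because the treatment supplied this microRNA. A microRNA represses transcripts that pair with its seed, bases 2 to 8, which is in capitals in the RefSeq sequence of the mature form (GRCm38.p6).
mmu-miR-181d-5p: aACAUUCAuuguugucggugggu
In the longest annotated 3′ UTR of each gene (GENCODE vM21, on the same build as mm10), the letters TGAATGTA, TGAATGT or GAATGTA were searched on the transcribed strand. Of the 37 tested genes 3 held such a match (8.11%), against 23.0% of the 11770 tested genes with a 3′ UTR, whose UTRs were longer (median 943 bases in the 37 genes and 1114 bases in all). Those of 2 of them, each in the last exon, are shown with matches in capitals and the bases around them in lower case: Ccl7 (chr11:82047297-82047304, forward strand, an 8mer) and Cxcr3 (chrX:101731616-101731622, reverse strand, a 7mer).
Ccl7: ttggtgtgattTGAATGTAaagctctggag
Cxcr3: gttgtcagcacTGAATGTgcccatctcag
Neither passed the test over all genes, with log2 changes of -0.20 (Ccl7) and -0.17 (Cxcr3) and limma adjusted p of 0.834 and 0.611. Without control liver 5 the log2 changes were 0.19 (Ccl7) and -0.23 (Cxcr3), and that of Cxcr3 was -0.04 without control liver 4. Of the untested genes, Cxcr5 held a 7mer. Cxcr4 held none of these letters in the 3′ UTR searched.

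Genes that act with chemokines were read from lists outside the set. Of 24 tested genes of receptor signalling, 24 had a log2 change below 0 (median -0.15), and 8 had an unadjusted p under 0.05, where 9.63% of all genes were lower at that threshold. Rgs1, which dampens chemokine receptor signals in lymphocytes, averaged 17.0 ± 3.07 FPKM in miR-181d-5p livers and 27.8 ± 11.2 FPKM in control livers (SD, n = 5 each), and stood at 46.7 FPKM in control liver 5. Dock2, which activates Rac for leukocyte migration, averaged 5.48 ± 0.710 FPKM in miR-181d-5p livers and 7.33 ± 1.08 FPKM in control livers (SD, n = 5 each). Grk5, a kinase of activated receptors, averaged 1.60 ± 0.273 FPKM in miR-181d-5p livers and 2.34 ± 0.333 FPKM in control livers (SD, n = 5 each). None of the 8 passed over all genes; the limma adjusted p was 0.2503 for Rgs1, 0.240 for Dock2 and 0.221 for Grk5.

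Of 16 tested genes for the docking of leukocytes on endothelium, 16 were below 0 (median -0.23) and 8 had an unadjusted p under 0.05 (background 9.63%). They summed to 216 to 281 FPKM in miR-181d-5p livers and 284 to 341 FPKM in control livers. Jam2, a junctional adhesion molecule, averaged 6.81 ± 0.560 FPKM in miR-181d-5p livers and 8.999 ± 1.29 FPKM in control livers (SD, n = 5 each). Itgb1, the integrin chain partnered by Itga4, was the 1 gene of the 16 without overlap (background 1.45% lower and 1.02% higher). It ran from 70.3 to 85.9 FPKM in miR-181d-5p livers and from 86.7 to 94.4 FPKM in control livers. Of 18 genes of the NF-kB pathway 11 were below 0 and 7 above (median -0.06), with 4 lower and 1 higher at an unadjusted p under 0.05 (background 9.63% and 5.04%). Nfkb1, Rel, Tnfaip3 and Birc3 were the 4, and Chuk, a kinase of the pathway, the 1. Of 8 tested genes close to the chemokine system but named otherwise, 5 were below 0. Cmklr1, the chemerin receptor of macrophages, averaged 4.45 ± 0.444 FPKM in miR-181d-5p livers and 6.88 ± 1.55 FPKM in control livers (SD, n = 5 each), a log2 change of -0.51 (SE 0.13; limma adjusted p = 0.221). The genes named from these lists were picked after their values were seen. None of these lists was given a test, and for comparison 54.5% of all genes tested were below 0.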

How the data were processed

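Per the labels' protocols, RNA was isolated with mirVana and sequenced as stranded TruSeq mRNA libraries. The authors deposited 1 table of FPKM values, with a column for each liver, matched to samples by group and number. The submitters' processing notes list the mm10 build and these tools: DESeq2 1.18.1, R 3.4.1, HTSeq 0.13.5, HISAT2 2.2.1, Trimmomatic 0.38 and FastQC 0.11.9. No source used here gives the FPKM formula or says whether counting used strand. Overlapping genes may share reads.

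Genes averaging 0.5 FPKM or more (12053) were tested as log2(FPKM + 1) with limma 3.58.1 under R 4.3.3. Group was the only term of the moderated fit, the variance prior followed the mean level, tests were two-sided, and p-values were adjusted by Benjamini-Hochberg at 0.05. Log2 changes on this scale understate those of low genes. Whole reads, within 0.02 of a read, were recovered from the FPKM for 17216 genes by searching whole gene lengths. The shortest length that fit was kept, so read counts of single genes may be too low. Reads carry no molecular identifiers, so depth speaks of counting error only. Exact permutation tests compared mean FPKM over 252 relabellings.

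The genes and lists were chosen with earlier results of these data known. Values in every liver are given for the 6 tested genes per direction with the smallest p (5 were higher), the 6 with the highest level and 17 known from steatohepatitis (1 of them is not reported here), and for some others. Alternatives were another pseudocount, filters, scalings, robust and weighted fits, a replicate block, limma voom on recovered reads and leaving out each liver. The labels name no batch. The gene that is not reported still enters the counts. Other steps used matplotlib 3.10.9, pandas 2.3.3, numpy 2.4.6 and Python 3.11.15.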

Additional observations from a re-analysis of the deposited data

Results flagged for a closer look

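In 5 of 74 groups of 5 livers (37 genes in each group), 1 liver stood apart, with a gap to its nearest neighbour that took more than 0.71 of the group's range. Chance alone gives this in about 5% of groups if values are normally distributed and groups independent, and 5 of 74 is close to that share. Genes that rise in the same liver are not independent. Of the 5, 3 were control liver 5. Cxcl1 stood at 84.0 FPKM there and at 17.4 FPKM in the next control liver (0.913 of the range), Cxcl2 at 6.02 and 3.04 FPKM (0.769), and Cxcl10 at 44.0 and 21.3 FPKM (0.761). Fos and Egr1 were also highest in that liver, at 142 and 96.2 FPKM. Ccl3 stood at 7.26 FPKM in miR-181d-5p liver 1 and at 4.21 FPKM in the next liver of that group (0.785). Ackr3 stood at 1.24 FPKM in miR-181d-5p liver 3 and at 1.47 FPKM in the next (0.726).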

How the results depend on the processing

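Under the 20 alternatives to the test, 0 of the 37 genes reached an adjusted p under 0.05 by limma, and the lowest was 0.102. In 24 genes the log2 change kept its sign under each alternative run, and in 13 it turned at least once, in 7 of them without control liver 5. Over all genes the adjusted count of 0 was 1 with the replicate block and 0 to 3 when a liver was left out. Genes higher at an unadjusted p under 0.05, 607 in all, numbered 347 with FPKM rescaled to a common sum, 936 with median-of-ratios scaling, 1007 after quantile normalization, 384 with the replicate block, and 372 to 793 without a liver; genes lower, 1161, numbered 674 to 1794 without a liver. Lower calls were 65.7% of the unadjusted calls, 78.5% with the common sum, 52.5% with median-of-ratios scaling and 48.1% after quantile normalization. Among the chemokine system genes, the 8 lower at an unadjusted p numbered 4 with the replicate block and 2 to 13 without a liver. The 1 higher (Ackr4) was 0 with the common sum, array weights, a filter at 1 FPKM, the replicate block and voom, 2 with no filter on low values, and 0 to 1 without a liver. The count without overlap, 1, was 1 to 3 without a liver. The number lower, 32, was 25 to 34 without a liver. The cause of each was not tested. Livers with the same number did not pair: the correlation of their deviations from the group means ran from -0.283 to 0.015. Ccl12 and Ccl20, with at most 7 and 16 recovered reads in a liver, are limited by depth.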
